A study of Mus musculus with 8 samples.

Results

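Brdt ChIP-seq islands found in wild-type round spermatids and in no other anti-Brdt library of the study numbered 30682. An island is a stretch of genome in which SICER, a caller of broad domains, found more ChIP reads than control reads. On chromosomes 2 to 13 and 15 to 19, islands were chosen by their called positions: each island of the wild-type round spermatid list was kept as private when it shared no base with any island of the lists of wild-type spermatocytes, BD1del spermatocytes and BD1del round spermatids. The private islands were 55.5% (55.1 to 55.9%) of the 55299 islands of their list on these chromosomes. That is the background rate for the share of this list's islands that were private, and not for the other shares below. On all chromosomes the 4 lists held 426082 islands, of which 74968 were in the wild-type round spermatid list. The definition of the private islands uses the positions of islands in all 4 lists. Their number and their separation from other islands therefore describe the choice and are not tests.

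The study set spermatocytes, which are in meiosis, beside round spermatids, which have completed it, in adult mice that were either wild type (C57BL/6) or lacked the first bromodomain of this protein (BD1del). The anti-Brdt libraries were 4, one for each stage and genotype, and each had an input counterpart. Wild-type cells of each stage came as fractions pooled from 10 mice, whose chromatin was cut with MNase to about 200 bp; for BD1del, fractions were likewise pooled, and the sources used here give no strain and no number of mice. Cells were separated on a BSA gradient, so purity of a fraction rests on sedimentation, and no expression values were used here to check it. Each group had 1 library, so no replicate error could be measured, no test between groups was made, and all comparisons are between single libraries. Intervals in parentheses are exact 95% intervals (Clopper-Pearson for shares, order statistics for medians) and cover counting error only, since neighbouring islands and reads are not independent.

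Brdt belongs to the BET proteins and is made in the testis; its bromodomains bind acetylated lysines on histones. Its first bromodomain binds acetylated histone H4, and loss of this domain in mice leads to failure of spermatid elongation and to sterility. In round spermatids Brdt acts first in a transcribing haploid genome, and later in the same cell lineage histones become hyperacetylated and are replaced by transition proteins and protamines. No genome or annotation of the build of the lists (mm9) was used here, so islands are named by position, without genes and without sequence.

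The lists differed in the reads that their islands held; library totals were not used here. On the chromosomes used, islands of wild-type round spermatids held 2873055 ChIP reads, of which 325092 lay in 1 island that was not private, against 3147476 in wild-type spermatocytes, 4461473 in spermatocytes of BD1del and 5375414 in its round spermatids. From the scaling in the lists, control depth exceeded ChIP depth 3.79 times for wild-type round spermatids, 1.79 times for wild-type spermatocytes, 5.64 times for spermatocytes of BD1del and 5.45 times for its round spermatids. The island with fewest ChIP reads held 17, 26, 21 and 17 of them in that order. Of the private islands 8022 (26.1%) had fewer ChIP reads than any island of wild-type spermatocytes, against 10.4% of the other islands of their list. The wild-type lists are named for F3 tags and the BD1del lists for paired F3 and F5 tags, so genotype and read set cannot be told apart. A place without an island in another list is a place not called there, which is not the same as a place without Brdt.

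Private islands were short. Their median length was 1200 bases, against 1600 bases for the other 24617 islands of the list, and their middle part ran from 600 to 1800 bases (25th to 75th percentile) against 1000 to 2400 bases. All lengths are multiples of the 200-base window of the caller. The most frequent lengths were a single window, with 3383 private islands (11.0%), and 1000 bases, with 3218. Among the other islands a single window made up 4.74%. Only 301 private islands (0.981%) reached 4000 bases, against 7.32% of the others. A length of 10000 bases was reached by 1 private island (0.00326%), against 36 (0.146%) of the others. The private islands covered 40774800 bases in all, and the other islands 46939600 bases. Islands private to each other list were by median also shorter than the rest of that list. Medians were 1800 against 2200 bases in wild-type spermatocytes, 1000 against 1600 in BD1del spermatocytes and 400 against 800 in BD1del round spermatids.

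**Figure D1:**
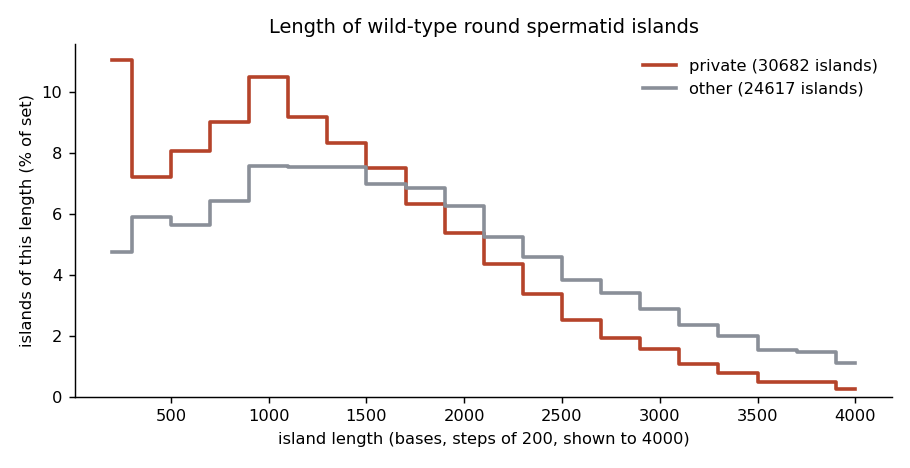
Share of islands at each length, in bases, for private islands and for the other islands of the wild-type round spermatid list, up to 4000 bases. Private islands peak at the single 200-base window (11.0%) and again at 1000 bases, and fall below the other islands from 1800 bases on.

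Private islands held few reads on both sides of the comparison. Their median was 31 ChIP reads and 35 control reads, against 41 and 63 in the other islands. In all they held 1031706 ChIP reads, while the other islands, fewer in number, held 1841349. ChIP reads per kb were alike, at a median of 26.4 (26.3 to 26.7) in private and 25.8 (25.7 to 26) in other islands. Control reads per kb were lower in private islands, at a median of 28.8 (28.8 to 29.0) against 39.3 (39.0 to 39.6). The sets thus differed more in control density than in ChIP density.

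The deposited fold, the ratio of ChIP reads to control reads scaled by library size, was higher in the private islands. Its median was 3.40 (3.38 to 3.43), against 2.45 (2.43 to 2.47) in the other islands, and the private median was the higher one on each of the 17 chromosomes. A fold of at least 2 was reached by 88.4% of the private islands (27136), where 80.7% of all islands of the list reach it. A deposited FDR of at most 1e-10 was reached by 38.2% (11711), where 33.4% of all islands do. At the weak end, 4.45% of the private islands and 8.39% of the others had an FDR above 0.001. Islands with many reads were few in the private set: 134 (0.437%) had at least 100 ChIP reads, against 1895 (7.70%) of the others. In each other list the islands private to it also had the higher median fold. Private and other medians were 1.83 and 1.73 in wild-type spermatocytes, 4.20 and 3.38 in BD1del spermatocytes, and 7.96 and 5.25 in BD1del round spermatids.

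Single-window islands carried the highest folds on the fewest reads. The 3383 private islands of 200 bases had a median of 19 ChIP and 5 control reads and a median fold of 13.6. Of them 966 held exactly 17 ChIP reads, the lowest number in the list, and 2677 (79.1%) had fewer than 10 control reads. Among all private islands 143, of which 136 were single windows, had no control read, and the deposited fold there rests on 0.25 reads put in place of 0. For this reason islands are named below by fold only where they held at least 10 control reads.

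The share of islands that were private rose with the fold. Among islands with a fold under 1.5, 20.9% (18.6 to 23.3%) were private. The share was 34.8% at folds from 1.5 to 2, 54.0% from 2.5 to 3, 67.6% from 4 to 6 and 84.4% (83.2 to 85.5%) from 10 on. With at least 10 control reads, the last class held 392 islands, of which 73.2% (68.5 to 77.5%) were private. By length the share ran the other way, from 74.4% (73.1 to 75.6%) of the single windows to 12.8% (11.3 to 14.5%) of islands over 4000 bases. A long island has more bases on which to meet another, so the shares by fold were also taken at equal length. In islands of 800 to 1200 bases the private share was 33.7% at folds under 2, 50.7% from 2 to 3, 69.3% from 3 to 5 and 73.2% from 5 on. In islands of at least 2200 bases it was 31.0%, 44.8%, 47.6% and 31.7%, the last from 120 islands, so the rise with the fold did not extend to the long islands of highest fold.

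The private share by fold was also taken in each other list. Islands of 1000 to 1400 bases of each list were divided by fold into 5 groups of equal size. In wild-type round spermatids the private share went from 39.9% (38.1 to 41.7%) in the lowest to 71.9% (70.2 to 73.6%) in the highest group. In wild-type spermatocytes it went from 26.5% (23.3 to 29.8%) to 39.97% (36.4 to 43.6%). For BD1del the values were 72.9% (71.7 to 74.1%) and 76.3% (75.1 to 77.4%) in spermatocytes, and 74.2% (73.1 to 75.3%) and 77.1% (76.0 to 78.1%) in round spermatids. These lists differ in length, with 22484, 55299, 88738 and 163246 islands from wild-type spermatocytes and round spermatids to BD1del spermatocytes and round spermatids. The overall private shares, 28.4%, 55.5%, 73.2% and 81.9%, stand in the same order as the list lengths, and each list was set against others of unequal length. The rises were not tested against each other.

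**Figure D2:**
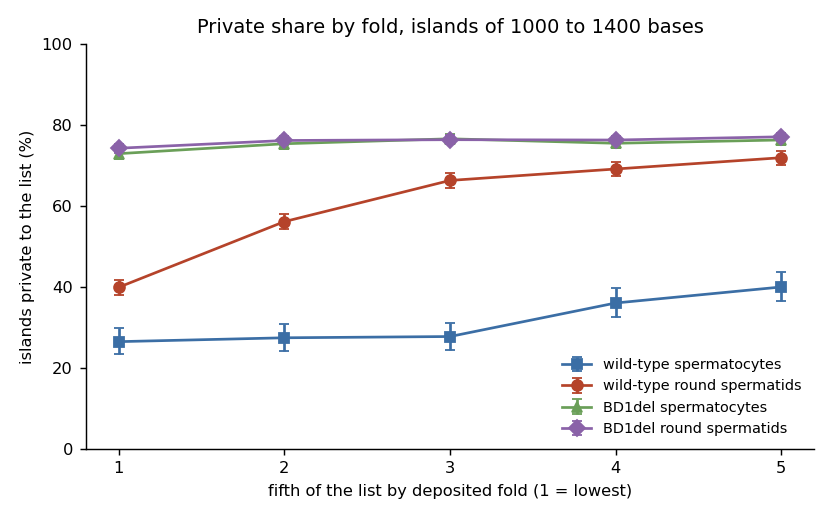
Share of islands private to each list (vertical axis, percent) by rank group of that list's deposited fold, 5 of equal size (horizontal axis), for islands of 1000 to 1400 bases; bars are exact 95% counting intervals. The wild-type round spermatid list rises from 39.9% to 71.9%, while both BD1del lists stay between 72.9% and 77.1%.

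Which list an island met went with its control reads, with the widest range for wild-type spermatocytes. Wild-type round spermatid islands of 1000 to 1400 bases were divided likewise by control reads, from a median of 21 reads to a median of 70. In the lowest group 76.1% (74.5 to 77.6%) were private and in the highest 27.9% (26.2 to 29.6%). The share that met a wild-type spermatocyte island was 3.85% (3.17 to 4.63%) in the lowest and 54.2% (52.3 to 56.0%) in the highest group. For BD1del spermatocytes the shares were 9.65% (8.58 to 10.8%) and 25.7% (24.1 to 27.3%), and for BD1del round spermatids 13.2% (12.0 to 14.5%) and 33.6% (31.8 to 35.3%). ChIP reads moved with control reads here, from a median of 29 to 40 per island. The private share also fell with ChIP reads, from 74.9% in the lowest to 35.5% in the highest group. Between the groups of fewest and most control reads, the private share of the same length class went from 44.3% to 14.9% in wild-type spermatocytes, so a fall of this kind was not limited to wild-type round spermatids. For BD1del it went from 78.4% to 69.4% in spermatocytes and from 79.4% to 68.5% in round spermatids. The part of the control density in which islands were private was not tested.

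Islands were also grouped by the lists they met. The 6643 islands that met wild-type spermatocytes alone had a median of 45.9 control reads per kb and a median fold of 2.17. Islands that met only BD1del round spermatids (6425) had 30 control reads per kb and a fold of 2.90, and those that met only BD1del spermatocytes (3911) had 30 and 2.94. These BD1del classes therefore lay closer to the private islands, at 28.8 and 3.40, than the class shared between the wild-type stages did. The 2369 islands met in all 3 other lists had the highest median control density of the 8 classes, 58.6 reads per kb, and a fold of 2.11. The lowest median fold, 2.07, was that of the 1286 islands met in spermatocytes of both genotypes alone.

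Distances to the other lists differed little between private islands and the other islands of the same list that missed the list in question. The nearest wild-type spermatocyte island lay at a median of 34000 bases (33600 to 34800). For islands that were not private but also missed that list, the median was 33600 bases (32800 to 34600; 11900 islands). To BD1del spermatocytes the medians were 7600 bases (7400 to 7800) and 7800 (7600 to 8000; 15487 islands). To BD1del round spermatids they were 4000 bases (the interval collapsed onto this 200-base step) and 4400 (4200 to 4400; 11840 islands). The order of the 3 distances follows the number of islands in the 3 lists. At equal length, 1000 to 1400 bases, the medians of private and other islands were 34600 and 33000, 7600 and 7600, and 4000 and 4000 bases.

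Most private islands had a neighbour of another list close by, but these lists were dense. On the chromosomes used they held 22484 islands for wild-type spermatocytes, 88738 for BD1del spermatocytes and 163246 for BD1del round spermatids. No rate for random positions was computed, so nearness beyond that density was not tested. The nearest island of any of the 3 lists was at a median of 2400 bases, and 93.3% (93.1 to 93.6%) had one within 10000 bases. Within 1000 bases the share was 26.8%. The nearest island belonged to BD1del round spermatids alone in 58.5% of cases, to BD1del spermatocytes alone in 31.2% and to wild-type spermatocytes alone in 7.96%. Within 10000 bases of a private island there was a wild-type spermatocyte island in 20.4% (19.99 to 20.9%), a BD1del spermatocyte island in 59.9% (59.4 to 60.5%) and a BD1del round spermatid island in 81.2% (80.7 to 81.6%). For other islands that missed the list in question the shares were 20.01%, 59.0% and 79.6%, so such nearness was not particular to private islands.

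**Figure D3:**
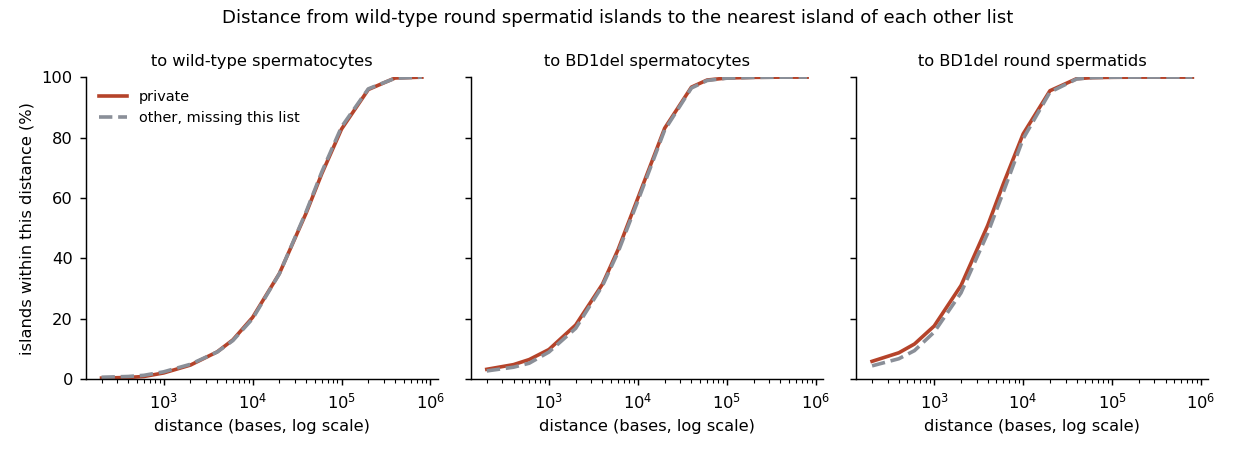
Cumulative share of islands (percent) by distance to the nearest island of wild-type spermatocytes, BD1del spermatocytes and BD1del round spermatids, on a log scale in bases. The solid line is the private set and the dashed line the other wild-type round spermatid islands that miss the same list; the lines nearly coincide, with medians of 34000 and 33600, 7600 and 7800, and 4000 and 4400 bases.

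The limit between private and not private fell among similar islands. Of the private islands 1489 abutted an island of another list without sharing a base, and 3994 lay 200 to 600 bases away, so 5483 (17.9%) were within the 600-base gap that SICER bridges inside one list. Abutting islands had a median length of 1200 bases and a median fold of 3.56. The 4075 islands just outside the set, which shared 200 bases with other lists in all, had a median length of 1200 bases and a median fold of 3.23. The 20542 islands that shared more had 1800 bases and 2.34. Private islands over 10000 bases from any other island, 2042 in number, had 1200 bases and 3.33, so distance went with little difference in length or fold. Examples were taken among islands with at least 10 control reads, with ties broken by higher fold. Just inside is chromosome 11, 86014201 to 86015600, with 46 ChIP and 12 control reads, which abutted a BD1del round spermatid island. Just outside is chromosome 9, 22332001 to 22334200, with 186 and 43 reads, which shared 200 bases with a BD1del spermatocyte island.

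The strongest private islands were small and scattered. Given 10 or more control reads, 21 private islands had a fold of at least 15, of 35 such islands in the list (60%, 42.1 to 76.1%), a share whose interval holds the background. The 20 leading ones outside chromosome 18 lay on 11 chromosomes and had folds of 15.2 to 30.3, from 40 to 160 ChIP and 10 to 28 control reads. Their median length was 600 bases, and 17 of them were at most 1000 bases long. Small size was not particular to private islands. The 392 islands of the list with a fold from 10 on and at least 10 control reads, private or not, also had a median of 600 bases. Intervals for a single fold treat the library ratio as known and cover the read counts alone. Within 10000 bases, 3 of the 20 had a wild-type spermatocyte island, 11 a BD1del spermatocyte island and 16 a BD1del round spermatid island. Over all private islands the shares were 20.4%, 59.9% and 81.2%, so these counts do not set the 20 apart.

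The private island of highest fold was chromosome 8, 23163001 to 23163800, with 80 ChIP and 10 control reads and a fold of 30.3 (15.6 to 65.6). Its nearest BD1del round spermatid island was a single window 1800 bases away with 22 ChIP and 4 control reads, and the nearest wild-type spermatocyte island was 58200 bases away. The second was chromosome 13, 89596601 to 89597000, with 69 and 11 reads and a fold of 23.8 (12.5 to 49.8), at 93400 bases from a wild-type spermatocyte island. The third, chromosome 5, 5227601 to 5230200, was the longest of the 20 at 2600 bases and had the most ChIP reads, 160 against 28 control reads. Its fold was 21.6 (14.4 to 33.6), the most narrowly bounded of these first islands. A BD1del round spermatid island of 600 bases with a fold of 6.14 lay 600 bases before it.

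Below these came chromosome 4, 36249201 to 36249600, and chromosome 2, 38735401 to 38735600, each with 53 ChIP and 10 control reads and a fold of 20.1 (10.1 to 44.3). Next was chromosome 3, 151631001 to 151631800, at 19.7 (9.90 to 43.5), the most isolated of these first 6 islands, with the nearest island of any other list 17400 bases away. On chromosome 7, 125352401 to 125354000 had 77 ChIP and 16 control reads and a fold of 18.2 (10.5 to 33.5). On chromosome 17, 9017801 to 9018600 had 62 and 13 reads and a fold of 18.1 (9.83 to 35.8), with islands of both BD1del lists within 2800 bases. The intervals of all these islands overlap, so their order by fold is not settled by the reads. One of the 20 had a wild-type spermatocyte island as its nearest neighbour: chromosome 11, 92554001 to 92554600, with 49 and 11 reads and a fold of 16.9 (8.66 to 36.0), lay 1600 bases from an island of fold 1.45 in that list.

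**Figure D4:**
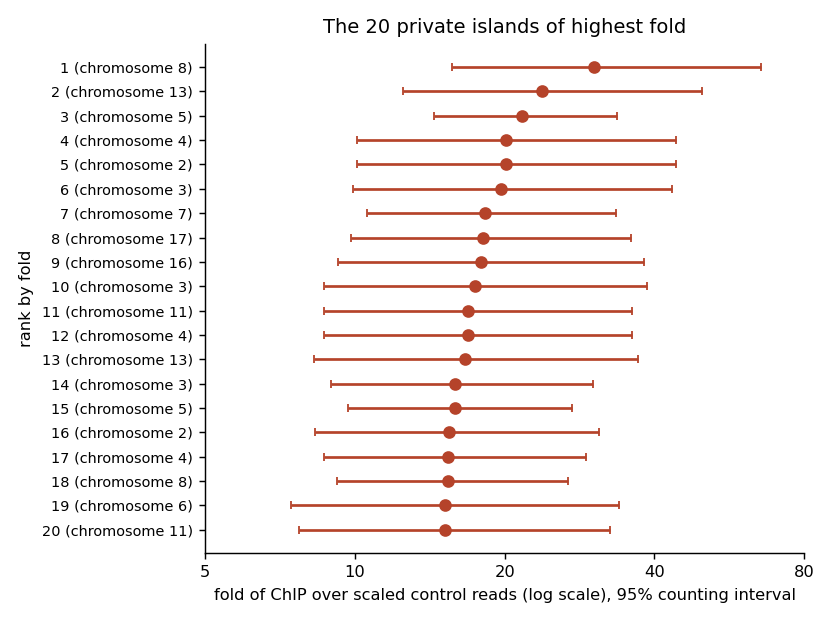
Deposited fold of the 20 leading private islands, all with 10 control reads or more, on a log axis, with 95% counting intervals; each row is 1 island, labelled by rank and chromosome. The points run from 30.3 down to 15.2, and all intervals overlap.

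The 5 longest private islands and the 5 with most ChIP reads had low folds, from 1.15 to 2.54. The longest, chromosome 5, 11830001 to 11840600, spanned 10600 bases with 256 ChIP and 710 control reads and a fold of 1.37 (1.18 to 1.58). It lay 1600 bases from a wild-type spermatocyte island of 16600 bases with a fold of 1.46, and 1400 bases from a BD1del spermatocyte island. The next, chromosome 10, 86705201 to 86713600, had a fold of 2.05 (1.63 to 2.57) from 119 and 220 reads, and the other 3 of the 5 longest had folds of 1.28 to 1.52. The private island with most ChIP reads was chromosome 8, 127544201 to 127547800, with 900 ChIP and 1802 control reads, a fold of 1.89 (1.74 to 2.05) and 501 control reads per kb. Another, chromosome 8, 25748201 to 25751800, held 360 and 1077 reads at a fold of 1.27 (1.12 to 1.43), and the wild-type spermatocyte island 600 bases away had a fold of 17.2, from 433 ChIP and 45 control reads. Chromosome 17, 87411601 to 87414200, with 358 and 1177 reads, had the lowest fold of the whole private set, 1.15 (1.02 to 1.30). All 5 islands of most ChIP reads lay in places of dense control reads, from 138 to 501 per kb, where the private median was 28.8.

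The 5 most isolated private islands held 17 to 48 ChIP reads, around the private median of 31. On chromosome 12, 23971401 to 23972200, with 27 ChIP and 48 control reads and a fold of 2.13 (1.28 to 3.48), lay at least 69600 bases from every island of the other lists. Its neighbour at 23974401 to 23975400, with a fold of 1.64 (1.07 to 2.46), was 66400 bases away from the nearest. On chromosome 7, 9325201 to 9326400 had a fold of 2.38 (1.51 to 3.73) and stood 47200 bases from a wild-type spermatocyte island and at least 109000 bases from BD1del islands. The fourth, a single window on chromosome 7, 22857401 to 22857600, had 17 and 14 reads and a fold of 4.60 (2.13 to 10.1), and the last, chromosome 2, 175179401 to 175181800, had 48 and 118 reads and a fold of 1.54 (1.08 to 2.17). Of these folds only that of the single window was above the private median of 3.40, and its interval holds that median.

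Across chromosomes the density of private islands was nearly even. It ranged from 13.7 per Mb on chromosome 15 to 16.99 on chromosome 19, a ratio of 1.24, with a median of 14.3. The other islands ranged from 8.98 per Mb on chromosome 8 to 18.9 on chromosome 19, a ratio of 2.11. The private share of a chromosome therefore ran from 47.3% (45.1 to 49.5%) on chromosome 19 to 61.5% (59.7 to 63.2%) on chromosome 8. Chromosomes 2 and 3 were also low, at 50.1% and 50.2%, and chromosomes 12 and 10 high, at 60.3% and 59.96%. Over the 17 chromosomes the private share had a Spearman correlation of -0.93 with the islands per Mb of its own list. Those islands are also the denominator of the share, so with private density nearly even a negative value follows from the arithmetic. With the part of the chromosome covered by another list, the correlation was -0.87 for wild-type spermatocytes. It was -0.90 for BD1del spermatocytes and -0.80 for BD1del round spermatids. The other lists enter the definition of the set, and all these values are descriptions. The median length of private islands was 1200 bases on each of the 17 chromosomes, and their median fold lay between 3.08 (chromosome 19) and 3.67 (chromosome 10).

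**Figure D5:**
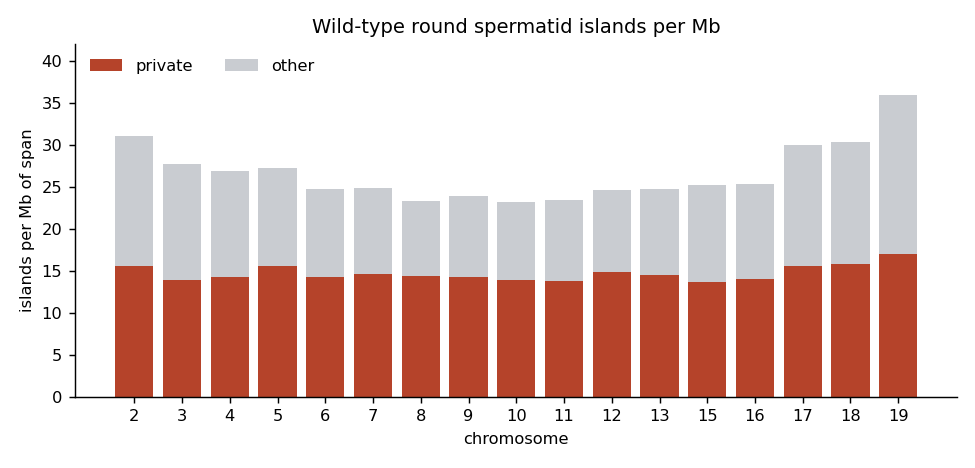
Islands of the wild-type round spermatid list per Mb of chromosome span, stacked as private and other islands, for the 17 chromosomes used. The private part stays between 13.7 and 16.99 per Mb, while the other part varies from 8.98 to 18.9.

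Private islands were also the more evenly spread in bins of 1 Mb. Over 2101 bins that held an island of the list, private islands had a median of 14 per bin (10th to 90th percentile 9 to 20) and an SD of 0.300 times their mean. The other islands had a median of 11 (6 to 18) and an SD of 0.480 times their mean. In the 2092 bins with at least 10 islands the private share had a median of 56.3%, with 25th and 75th percentiles of 48.5% and 64.8%. Along the chromosomes, divided into 10 stretches of equal length from the centromeric end, the share was lowest in the last at 50.6% (49.4 to 51.8%) and highest in the fourth at 59.0% (57.6 to 60.3%).

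The bin with most private islands stood apart from the next ones in their form. On chromosome 2, 176000001 to 177000000 held 37 private islands of 60, with a median length of 2200 bases and a median fold of 1.75. This bin also held 26 wild-type spermatocyte, 19 BD1del spermatocyte and 31 BD1del round spermatid islands. On chromosome 19, 48000001 to 49000000 held 36 of 49, with a median of 1000 bases and a fold of 3.25, beside 12, 48 and 89 islands of the same lists. On chromosome 7, 84000001 to 85000000 held 31 of 36, with 1200 bases and a fold of 3.56, beside 10, 47 and 79. The first bin thus held fewer BD1del islands and more wild-type spermatocyte islands than the other bins. Private islands of the first bin were thus longer and weaker than the median private island, and those of the other bins were close to it.

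Private islands were mixed with the other islands along the chromosomes. The nearest island of the same list was itself private for 57.1% (56.5 to 57.6%) of the private islands and for 52.0% (51.4 to 52.6%) of the others, both close to the 55.5% of all islands that were private. That neighbour was 12600 bases away for private islands (12400 to 13000) and 10800 for the others (10600 to 11000), both as medians. Consecutive private islands formed 13181 runs, of which 5763 were a single island and 112 held at least 10. No count for a random order at a private share of 55.5% was computed, so run lengths were not tested. The longest run was 21 islands on chromosome 8 from 102002801 to 102819200, with a fold of 3.11 over its summed reads. That stretch of 816 kb held 1 wild-type spermatocyte island, 30 BD1del spermatocyte islands and 43 BD1del round spermatid islands. The second, 17 islands on chromosome 13 from 42179801 to 42765600 with a fold of 2.86, held 3, 25 and 39 islands of the same lists.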

How the data were processed

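Each of the 4 anti-Brdt libraries had 1 deposited island list, and the 4 input libraries entered only as control counts. Per the submitters' processing notes the lists are from SICER on mm9; the window of 200 and gap of 600 bases and the FDR of 0.01 were read from the names of the lists. The sources used here give no aligner, read filters or SICER version. Per island the authors deposited ChIP and control read counts (raw), a p-value and an FDR as q-value, and a fold, the ChIP over control ratio after scaling for library size. The scaling was recovered as the counts' ratio over the fold. Fold, p-value and FDR are the authors' values of 1 library.

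Coordinates were made 1-based. Distance is the number of bases between islands, 0 where they abut. A chromosome's span lies between its outermost islands over all lists. Computation used Python 3.11.15, pandas 2.3.3, NumPy 2.4.6 and SciPy 1.17.1, and the overlap code was checked on simulated islands. Named islands, none on chromosome 18, were the 20 highest folds with 10 or more control reads, the 5 longest, those with most ChIP reads, the farthest from other lists, those nearest the limit, and the 3 bins of 1 Mb with most members; the leading ones are given. The length class of 1000 to 1400 bases, the 5 groups, the runs and the correlation were added later. Members and measures were chosen with earlier results of these data known. Genes and base composition were not analysed here, as no mm9 reference was used.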

Additional observations from a re-analysis of the deposited data

How the results depend on the processing

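The private set had a higher median fold than the remaining islands under all 13 alternatives. Alternatives were run for the number, the share and the median fold of the private islands, and not for the values by fold, control reads, distance, chromosome or bin. The share was above 50% in the main definition (55.5%) and fell below it where near islands counted as met. With an island of another list within 600 bases counted as met, the private share was 45.6%; within 10000 bases it was 3.69%, with 2042 islands and a median fold of 3.33. Counting an island as met only at 50% coverage gave 70.1% and a fold of 3.16. An FDR of at most 1e-10 in all 4 lists left 13455 private islands (72.8%, fold 6.24), and in the wild-type round spermatid list alone 11711 (63.4%, fold 6.63). A fold of at least 2 in all lists gave 67.2% and 3.52. That cut also thinned the lists that could be met. It kept 36.0% of wild-type spermatocyte, 94.6% of BD1del spermatocyte and 99.0% of BD1del round spermatid islands. With the other lists left whole, 60.8% of the wild-type round spermatid islands with a fold of at least 2 were private. At least 10 control reads gave 52.9% and 3.13, at least 400 bases 53.8% and 3.18, and leaving out the 1% of islands densest in control reads 56.0%. Without the wild-type spermatocyte list in the definition the share was 67.5% (fold 3.11), without BD1del spermatocytes 62.6% (3.35) and without BD1del round spermatids 67.1% (3.30). Counting abutting islands as met, an alternative chosen after seeing the data, gave 52.8% (29193 islands). The smaller counts at an FDR of 1e-10 come with fewer islands, 18477 in all. No paired analysis was possible because each group had 1 library. How depth limits the set was not tested, and places not called in another list cannot be told apart from places without binding.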

Other observations

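Of the chromosomes outside the definition, 1, X and Y had a lower private share than any of the 17 used, and 14 lay within their range. By the same overlap rule, 30.8% (29.8 to 31.7%) of the 9378 wild-type round spermatid islands on chromosome 1 were private, 51.0% (49.3 to 52.7%) of the 3319 on chromosome 14, 20.5% (19.5 to 21.5%) of the 6652 on X and 6.25% (3.86 to 9.49%) of the 320 on Y. On chromosome 1 from 3 to 24 Mb 11.8% (10.5 to 13.1%) of the islands were private, and on the rest of it 37.4% (36.2 to 38.5%), still below each of the 17 chromosomes used. On chromosome 14 the block from 3 to 9 Mb had 9.72% (6.97 to 13.1%) and the rest 56.5% (54.7 to 58.3%), which lies within the range of the other chromosomes. The limits of these blocks came from earlier results of these data. The 1364 private islands of X had a median length of 1000 bases and a median fold of 3.26, and those of chromosome 1 had 1200 bases and 3.20, close to the 1200 bases and 3.40 of the private set. Within the blocks they were longer and weaker. The 284 in the chromosome 1 block had 1800 bases and 2.15, and the 38 in the chromosome 14 block had 1600 bases and 2.05.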
